A study of Citrus sinensis with 4 samples.

Results

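The genes described here had transcripts that were at least 5 times scarcer at 70 than at 50 days after full bloom in the fruit endocarp of 2 sweet orange (Citrus sinensis) cultivars. They were chosen from the measured levels themselves. A level was the raw fragment count of a gene scaled to 1000000 fragments of its library (CPM) plus 0.5. A gene was a member where the lower of its 50-day levels was at least 5, and at least 5 times the higher of its 70-day levels. The rule considered the 28436 gene models with identifiers of the form Cs or orange1.1t, and 259 of them were members. Of the 12731 models whose lower 50-day level was at least 5, the members made up 2.03%. These values describe the choice and support no further statement.

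Endocarp was sampled from the cultivars Dahongtiancheng and Bingtangcheng at 50 and 70 days, and poly(A) RNA of each of the 4 combinations was sequenced in 1 library. The labels give neither the number of fruits or trees behind a library nor any treatment. With 1 library a group there was no replicate check, and no p-value is given. Intervals in the text are 95% exact counting intervals unless stated otherwise. They cover counting error only, not how fruits or trees vary. Stage and cultivar cannot be told apart from whatever else set the 4 libraries apart. Library totals lay between 14040916 and 16445383 fragments, so that 1 fragment corresponded to between 0.0608 and 0.0712 CPM.

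The citrus endocarp gives rise to the segment membranes and to the juice sacs that fill the ripe fruit. In young fruit its cells divide, and growth later shifts to the enlargement of juice sac cells, whose vacuoles store water, organic acids and sugars. The files pair no identifier with a gene name or description, and 0 of the 259 members matched the table of RefSeq genes used for naming. Members are therefore given by identifier and position, and no role is assigned to any of them. No genome build for these positions is named in the sources used here. Markers of seed, peel or vascular tissue could not be looked up for the same reason. In these bulk samples, fewer cells of a type and less RNA per cell cannot be told apart.

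**Figure D1:**
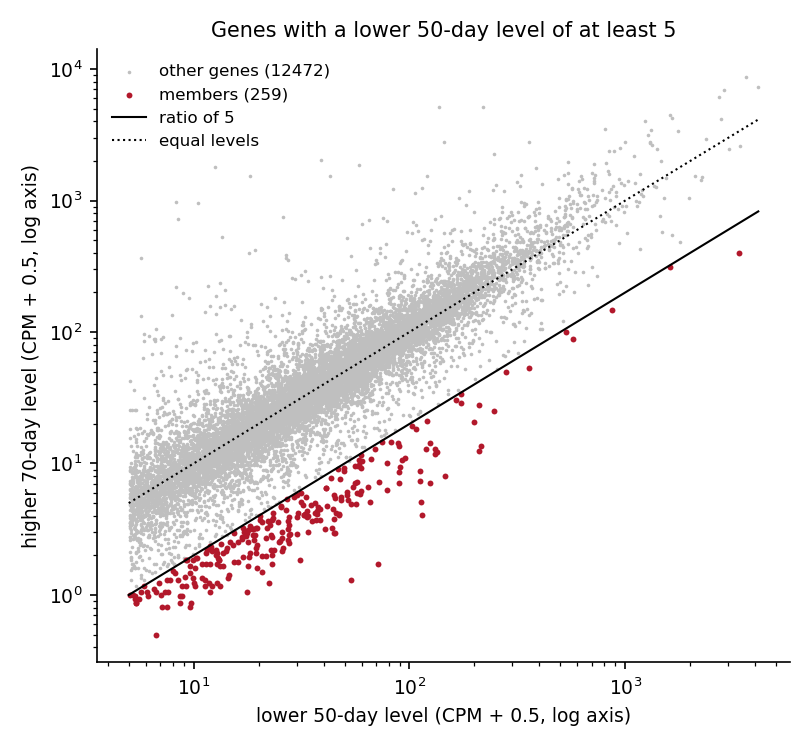
The higher 70-day level of each gene is plotted against its lower 50-day level, both as CPM plus 0.5 on log axes, for the 12731 gene models with a lower 50-day level of at least 5. The 259 members, in red, lie on or below the solid line, which marks a ratio of 5; most of the 12472 other genes lie near the dotted line of equal levels.

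As a group, the members went from a moderate level at 50 days to a low one at 70 days. Their median was 26.1 CPM in Dahongtiancheng and 27.1 CPM in Bingtangcheng at 50 days, against 1.48 and 2.37 CPM at 70 days. The rule required a fall of every member, so the contrast with the typical gene past the same 50-day minimum only describes the choice. Over all 12731 genes past this minimum, members included, the median went from 36.7 to 30.8 CPM in Dahongtiancheng. In Bingtangcheng it went from 38.0 to 30.8 CPM. Per kilobase of gene model, a scale on which genes can be compared, the members' median was 16.3 CPM in Dahongtiancheng and 17.0 in Bingtangcheng at 50 days. It was 0.890 and 1.36 at 70 days. The median log2 ratio of 70 to 50 days over members was -3.57 in Dahongtiancheng and -3.16 in Bingtangcheng. All 16709 expressed genes had medians of -0.20 and -0.29 on this scale. The size of this shift depends on the scaling chosen, and its source was not tested. Relative to the medians of all expressed genes, those of the members were -3.37 and -2.88.

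Most members were scarce but still present at 70 days. In 50 members the level was under 1 CPM in both 70-day libraries, and 57 of the 12731 genes past the 50-day minimum were this low. The rule nearly fixes this overlap, because a gene this low was a member unless its 50-day level was near the minimum. In 16 members the level was at least 10 CPM in both 70-day libraries. A complete loss was rare: 1 member had 0 fragments at 70 days in Dahongtiancheng and 2 in Bingtangcheng. Among all 12731 genes past the 50-day minimum, members included, it was rare too, with 2 and 7 at 0. The member at 0 in both was Cs4g02820 (chromosome 4, 1377231 to 1379047, minus strand), with 101 fragments at 50 days in Dahongtiancheng and 171 in Bingtangcheng. With 3 fragments put in place of each 0, its level was 33.5-fold lower at 70 days in Dahongtiancheng and 66.8-fold lower in Bingtangcheng. The counting intervals of its folds started lower, at 26.8 in Dahongtiancheng and 53.7 in Bingtangcheng, and had no upper end. The other member at 0 in Bingtangcheng was Cs6g22110 (chromosome 6, 20969996 to 20970867, plus strand), which had 6 fragments in the 70-day Dahongtiancheng library.

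**Figure D2:**
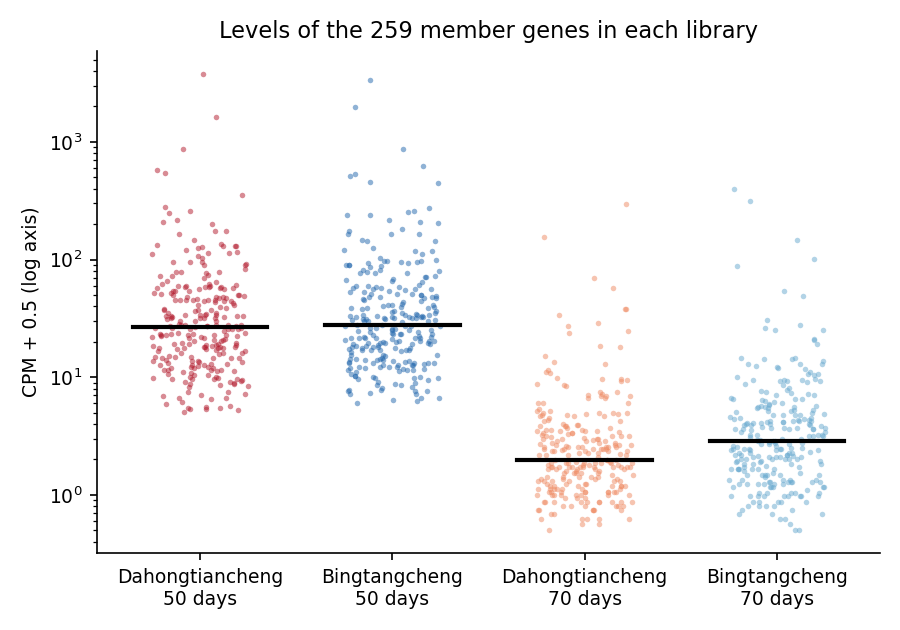
Each point is 1 of the 259 members in 1 of the 4 libraries, at its CPM plus 0.5 on a log axis, and the black bar is the median over members. The 50-day medians are alike in the cultivars (26.1 and 27.1 CPM before the 0.5 is added), and the 70-day median is lower in Dahongtiancheng (1.48 CPM) than in Bingtangcheng (2.37 CPM).

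Together the members held at 50 days 1.82% (1.81 to 1.82) of all Dahongtiancheng fragments and 1.98% (1.97 to 1.99) of those of Bingtangcheng. At 70 days they held 0.139% (0.137 to 0.141) and 0.214% (0.211 to 0.216). The summed share was thus 13.0-fold lower (12.9 to 13.2) at 70 days in Dahongtiancheng and 9.27-fold lower (9.17 to 9.37) in Bingtangcheng. A pair of genes, Cs2g14720 and Cs5g24930, accounted for 0.541% and 0.533% of the 50-day libraries. Without them the summed share was 13.6-fold lower (13.4 to 13.8) in Dahongtiancheng and 10.2-fold lower (10.02 to 10.3) in Bingtangcheng.

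The member with the highest lower 50-day level was Cs2g14720 (chromosome 2, 11609556 to 11615461, minus strand). It had 61732 fragments at 50 days in Dahongtiancheng and 47369 in Bingtangcheng, then 2500 and 6576 at 70 days. Per kilobase of its model, of length 2110, these were 1800 and 1599 CPM at 50 days. The highest such level of any member in the 50-day Bingtangcheng library was the 1602 CPM of Cs5g24930. At 70 days the level of Cs2g14720 was 24.6-fold lower (23.6 to 25.6) in Dahongtiancheng and 8.44-fold lower (8.22 to 8.66) in Bingtangcheng. Its 50-day levels were close, so the cultivars parted mainly at 70 days.

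Cs5g24930 (chromosome 5, 27763148 to 27844384, plus strand) came next, with 26207 and 27490 fragments at 50 days, then 4830 and 5123 at 70 days in Dahongtiancheng and Bingtangcheng. The levels were 5.41-fold (5.24 to 5.58) and 6.28-fold (6.10 to 6.48) lower at 70 days, so it stayed abundant. Its model, of length 1222 over a chromosome span of 81237, overlaps 5 others on the same strand from start to end. Whether they share counted sequence was not determined, so fragments there may not be assigned with certainty. Cs7g17000 (chromosome 7, 12497665 to 12499360, minus strand) had 866 and 867 CPM at 50 days, then 69.5 and 147 CPM at 70 days, again in the order Dahongtiancheng, Bingtangcheng. The unplaced gene orange1.1t00072 (1359274 to 1360118, minus strand) had 572 and 622 CPM at 50 days, then 26.9 and 87.6 CPM at 70 days. In each of these, except Cs5g24930, the 70-day level was over 2 times higher in Bingtangcheng while the 50-day levels were nearly equal.

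The other members among the 10 with the highest lower 50-day level were Cs8g18200, Cs2g05930, Cs3g16100, Cs7g01560, Cs5g17950 and Cs1g19390. Cs7g01560 (chromosome 7, 369300 to 375977, plus strand) had 247 and 258 CPM at 50 days, then 11.1 and 24.6 CPM at 70 days in Dahongtiancheng and Bingtangcheng. Cs5g17950 (chromosome 5, 18047859 to 18121413, plus strand) was the only one of these 10 with less in Bingtangcheng at 70 days, at 13.1 and 9.06 CPM, down from 256 and 214. Its model overlaps 4 others on the opposite strand and 1 on its own, the member Cs5g18000, and that of Cs3g16100 overlaps 1 on the opposite strand. These overlaps are of chromosome spans, and Cs5g17950 has a length of 1237 over a span of 73555. Whether strand was used in counting is not stated, and whether counted sequence is shared was not determined. Fragments in these stretches may therefore not be assigned with certainty.

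**Figure D3:**
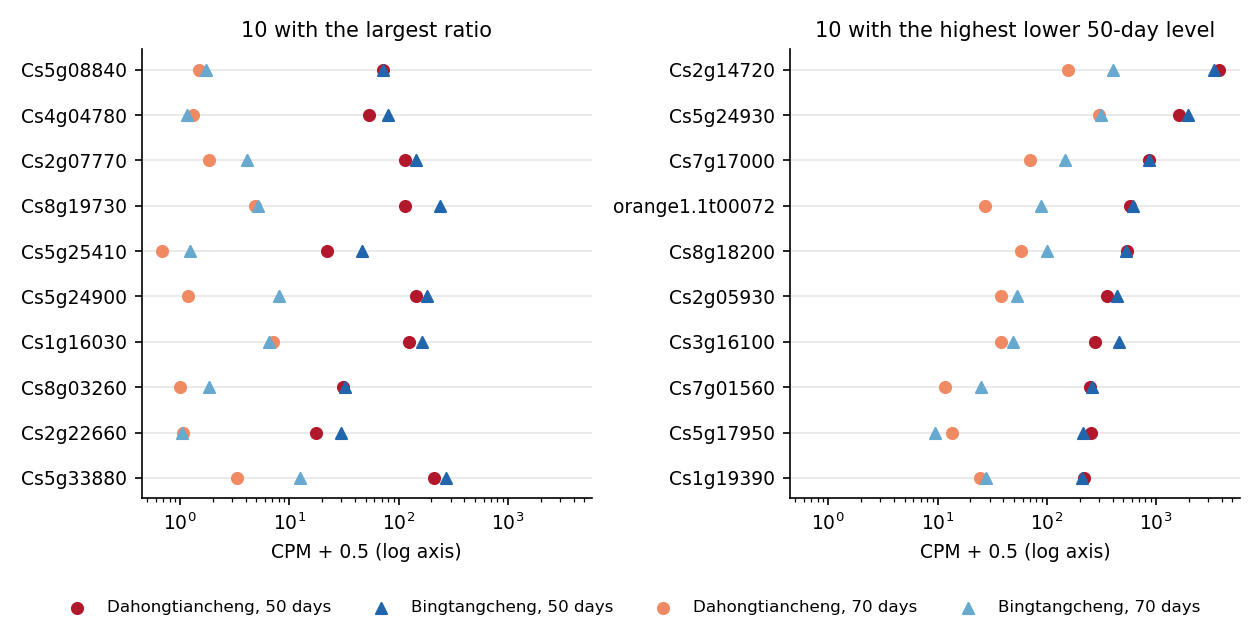
CPM plus 0.5 on a log axis in each of the 4 libraries, for the 10 members with the largest ratio of lower 50-day to higher 70-day level (left) and the 10 with the highest lower 50-day level (right). Circles are Dahongtiancheng and triangles Bingtangcheng, dark at 50 and light at 70 days; the dark symbols of every gene lie to the right of the light ones, as the rule requires.

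The ratio of the lower 50-day to the higher 70-day level had a median of 7.50 over members. It was under 10 in 204 members, between 10 and 20 in 51, and at least 20 in 4. These 4 were Cs5g08840, Cs4g04780, Cs2g07770 and Cs8g19730. Cs5g08840 (chromosome 5, 5861253 to 5863959, minus strand) stood first at 41.5, with 1163 fragments at 50 days in Dahongtiancheng and 994 in Bingtangcheng, then 16 and 20 at 70 days. It was 72.4-fold lower (44.4 to 127) at 70 days in Dahongtiancheng and 58.2-fold lower (37.5 to 95.7) in Bingtangcheng. The cultivars nearly coincided in this gene at each stage. Cs4g04780 (chromosome 4, 2850637 to 2852144, plus strand) followed at 41.2, with 53.2 and 79.1 CPM at 50 days, then 0.803 and 0.669 CPM at 70 days.

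Cs2g07770 (chromosome 2, 4671466 to 4672992, plus strand) had 1843 fragments at 50 days in Dahongtiancheng and 2006 in Bingtangcheng, then 22 and 59 at 70 days. The folds were 83.5 (55.0 to 134) and 39.8 (30.7 to 52.5). Cs8g19730 (chromosome 8, 21774506 to 21775810, plus strand) differed in the other way, with 1835 and 3341 fragments at 50 days but 70 and 76 at 70 days. Its excess in Bingtangcheng at 50 days was no longer seen at 70 days.

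The remaining members of the 10 with the largest ratios were Cs5g25410, Cs5g24900, Cs1g16030, Cs8g03260, Cs2g22660 and Cs5g33880, with ratios between 16.7 and 18.2. Cs5g33880 (chromosome 5, 34816669 to 34819305, minus strand) had 208 and 274 CPM at 50 days, then 2.84 and 12.04 CPM at 70 days in Dahongtiancheng and Bingtangcheng. Cs1g16030 (chromosome 1, 19118233 to 19126891, minus strand) had 124 and 163 CPM at 50 days, then 6.61 and 6.02 CPM at 70 days. The first was far lower in Dahongtiancheng at 70 days, whereas the levels of the second were close.

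The folds of many members rested on few 70-day fragments. The median member had 24 fragments at 70 days in Dahongtiancheng and 39 in Bingtangcheng, and 52 and 33 members had under 10. The counting interval of the fold between stages started above 5 for 239 members in Dahongtiancheng, for 242 in Bingtangcheng and for 225 in both. The offset of 0.5 also limits the ratio of weak genes. The median ratio was 6.25 for the 39 members with a lower 50-day level between 5 and 10, and 8.73 for the 29 at 100 or more.

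Members were not limited to weak genes, although they were less frequent among abundant ones. They made up 2.38% of genes with a lower 50-day level between 5 and 10, 2.92% between 10 and 20, 2.21% between 20 and 50, 1.43% between 50 and 100 and 1.25% from 100 up. This order was not tested.

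At the edge of the rule the genes inside and outside differed little. Cs5g07910, orange1.1t00204, Cs5g02710, Cs2g11770 and Cs7g07830 lay just inside, with ratios of at most 5.08. Cs8g19105, Cs3g08430, Cs3g03740, Cs8g18290 and Cs2g11140 lay just outside, from 4.97 to 4.995. Cs8g19105 (chromosome 8, 21495930 to 21496993, plus strand) missed the threshold because its lower 50-day level was that of Dahongtiancheng and its higher 70-day level that of Bingtangcheng, with 225 and 371 fragments at 50 days, then 3 and 39 at 70 days. At the minimum level, Cs9g02310, Cs7g06120 and Cs4g15790 were just inside, at 5.05 to 5.36, and Cs1g17590, Cs2g07670 and Cs8g19470 just outside, at 4.68 to 4.84. In all, 15 genes met the ratio but not the minimum level.

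Within a single cultivar, 516 genes with a 50-day level of at least 5 were at least 5 times lower at 70 days in Dahongtiancheng and 559 in Bingtangcheng. The members were 50.2% and 46.3% of these lists. In 297 genes at 5 or more in both 50-day libraries this held within each cultivar, and 38 of these were not members because the cultivars themselves differed. The mirrored rule, with the stages exchanged, was met by 41 genes, 0.347% of 11819. Scaling changed this split, and 202 genes were lower and 63 higher with TMM library sizes (trimmed mean of M-values, which set the typical gene to no change), so that the lower share went from 86.3% to 76.2%. With the deposited FPKM values it was 73.4%.

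The next question was whether members differed between the cultivars at each stage. At 50 days they differed little. The levels were within 2-fold of each other for 250 of the 259 members, or 96.5%, against 98.3% of all genes past the 50-day minimum. A gene was called higher or lower where it differed at least 2-fold and a 99% counting interval of the ratio excluded 1, among genes with at least 10 fragments and 1 CPM in 1 of the compared libraries. By this size rule 0 members were higher in Dahongtiancheng and 9, or 3.47%, were lower. Over all expressed genes 2.62% were higher and 4.19% lower. Among genes past the 50-day minimum the shares were 0.723% and 1.17%. The rule set a minimum for both 50-day levels but no limit on the ratio between the cultivars. The standard deviation of the log2 cultivar ratio at 50 days was 0.377 over members and 0.328 over all genes past the minimum. These differences were not tested, and with 1 library a group little can be read from these counts.

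The 9 members lower in Dahongtiancheng at 50 days were Cs8g19730, Cs5g25410, Cs1g19393, orange1.1t00436, Cs7g11940, Cs6g22110, Cs1g12460, Cs8g20420 and orange1.1t05560. The largest difference was in Cs7g11940 (chromosome 7, 7916140 to 7917153, minus strand), with 141 fragments in Dahongtiancheng and 420 in Bingtangcheng, a 3.45-fold (2.84 to 4.203) higher level in Bingtangcheng. The best counted was orange1.1t05560 (unplaced sequence, 87941310 to 87941945, plus strand), with 2813 and 7213 fragments, 2.97-fold (2.84 to 3.10) higher in Bingtangcheng. At 70 days it had 540 and 423 fragments, a level 1.30-fold (1.14 to 1.48) higher in Dahongtiancheng, so the order of the cultivars had turned.

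At 70 days the members lay lower in Dahongtiancheng. The 70-day level was higher in Bingtangcheng in 181 members and in Dahongtiancheng in 77, while the member at 0 in both was equal. Bingtangcheng was thus higher in 69.9% of members, compared with 50.9% of all genes past the 50-day minimum. The median log2 ratio of Dahongtiancheng to Bingtangcheng over members was -0.06 at 50 days and -0.41 at 70 days. Over all genes past the minimum these medians were -0.04 and -0.01. The size rule could be applied to 209 members at 70 days, of which 64, or 30.6%, were lower in Dahongtiancheng and 15, or 7.18%, were higher. None of these 64 had been called between the cultivars at 50 days. Calls at 50 days were few, with 9 of the 259 members (3.47%), so nothing is read from this. Over all expressed genes 5.49% were lower and 7.57% higher in Dahongtiancheng at 70 days.

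Calls also depend on the level. Among genes past the 50-day minimum whose mean at 70 days was under 10 CPM, members included, 9.95% were lower in Dahongtiancheng and 6.87% higher at 70 days. That group was not matched to the members' 70-day levels, and the part of the level in the members' shares was not tested. Among all genes past the 50-day minimum the shares were 4.12% and 3.62%. The rule used the 70-day levels, though not their order between cultivars, and each cultivar was represented by 1 library. The excess of members lower in Dahongtiancheng is therefore a description of these libraries.

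**Figure D4:**
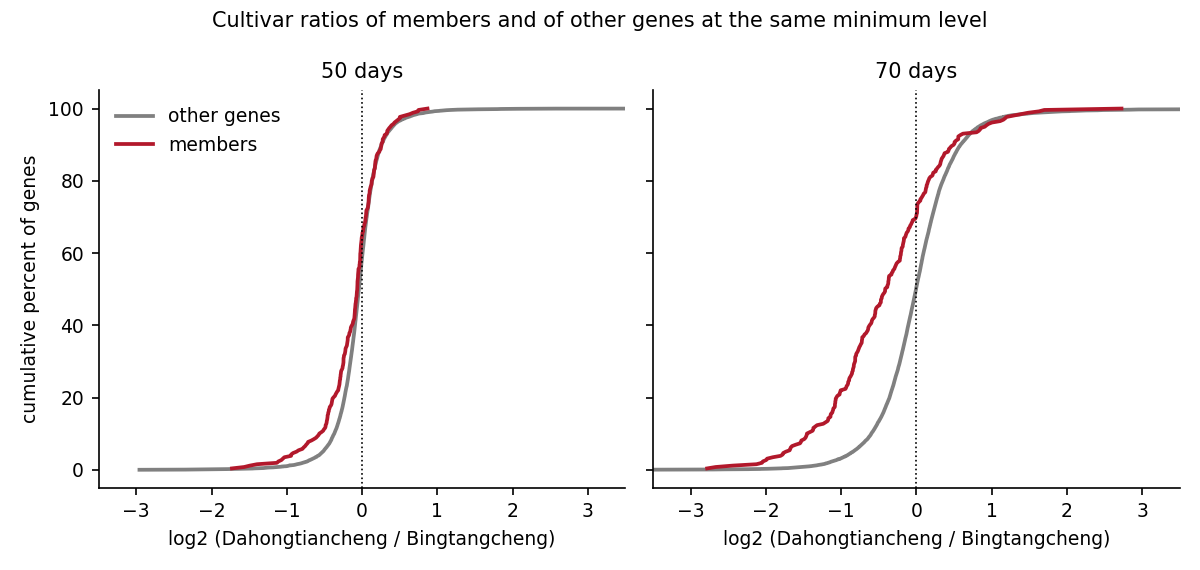
Cumulative percent of genes by their log2 ratio of Dahongtiancheng to Bingtangcheng (levels as CPM plus 0.5) at 50 days (left) and 70 days (right), for the 259 members in red and the 12472 other genes past the 50-day minimum in grey. The curves lie close at 50 days, and at 70 days that of the members is shifted to the left, with a median of -0.41.

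Among the members lower in Dahongtiancheng at 70 days the largest ratios of levels with the offset of 0.5 were in Cs5g24900, orange1.1t02146 and Cs5g04140. Ratios from counts, without the offset, are given for them here, and by these Cs2g01540, with 2 and 24 fragments, stood above all 3 at 11.8 (2.93 to 103). Cs5g24900 (chromosome 5, 27720292 to 27725379, plus strand) had 2355 fragments at 50 days in Dahongtiancheng and 2535 in Bingtangcheng, then 11 and 125 at 70 days. Its 70-day level was 11.2-fold (6.04 to 23.0) higher in Bingtangcheng. The unplaced gene orange1.1t02146 (33182458 to 33183021, minus strand) counted 1536 and 1332 fragments at 50 days, then 20 and 173 at 70 days, with an 8.52-fold (5.35 to 14.3) higher level in Bingtangcheng. Cs5g04140 (chromosome 5, 2313260 to 2316254, plus strand) had 1857 and 1438 fragments at 50 days, then 49 and 307 at 70 days, 6.17-fold (4.55 to 8.52) higher. All 3 had close levels in the cultivars at 50 days.

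The reverse was led, again with the offset, by Cs8g09300, Cs4g18630 and Cs5g02710. Without it the ratio of Cs3g22800, with 19 and 3 fragments, was 6.43 (1.89 to 33.9), above that of Cs5g02710. Cs8g09300 (chromosome 8, 7515597 to 7517656, plus strand) had 617 and 656 fragments at 50 days, then 65 and 3 at 70 days in Dahongtiancheng and Bingtangcheng. Its 70-day level was 22.0-fold (7.204 to 109) higher in Dahongtiancheng. Cs4g18630 (chromosome 4, 18195077 to 18196449, plus strand) had 365 and 428 fragments at 50 days, then 20 and 1 at 70 days, a ratio of 20.3 (3.25 to 842) that rests on a single fragment. Cs5g02710 (chromosome 5, 1243082 to 1248888, plus strand) had 431 and 532 at 50 days, then 79 and 19 at 70 days, 4.22-fold (2.53 to 7.38) higher in Dahongtiancheng.

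The last comparison of expression asked how far each member's level went down in each cultivar. The fall, the log2 ratio of 50 to 70 days, was larger in Dahongtiancheng for 169 members and in Bingtangcheng for 90. Its difference, Dahongtiancheng minus Bingtangcheng, had a median of 0.33 over members and of -0.07 over all expressed genes. The ratios of 50 to 70 days, not logged, were within 2-fold of each other for 182 members. Across members, which are not independent replicates and share the libraries and the threshold, the log2 ratios of the cultivars correlated at r = 0.271. Across all genes past the 50-day minimum r was 0.718. The rule leaves a narrower range among members, and the part of this range in the lower r was not tested.

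A difference of at least 2-fold whose 99% interval excluded no difference (a normal interval on logged counts, with 0.5 added to each of the 4) was found in 61 members with the larger fall in Dahongtiancheng, or 23.6%. It was found in 19, or 7.34%, with the larger fall in Bingtangcheng. Over all expressed genes 5.23% met this rule toward Dahongtiancheng and 8.35% toward Bingtangcheng, and over those past the 50-day minimum 4.63% and 5.66% did. Cs2g01540 (chromosome 2, 479728 to 483094, plus strand) had the largest difference toward Dahongtiancheng, with 267 and 246 fragments at 50 days, then 2 and 24 at 70 days in Dahongtiancheng and Bingtangcheng. Its fold between the stages, not logged, was 9.05 times (2.43 to 33.6, a 95% normal interval) as large in Dahongtiancheng. Cs5g24900 and orange1.1t02146 followed, at 8.62 times (4.70 to 15.8) and 8.30 times (5.22 to 13.2), on many more fragments. In the other direction Cs8g09300 led, with a fold 23.4 times (7.94 to 68.9) as large in Bingtangcheng, before Cs4g18630 at 18.8 times (3.57 to 99.4). Cs3g22800 (chromosome 3, 25298874 to 25300225, minus strand) came after these, with 149 and 154 fragments at 50 days, then 19 and 3 at 70 days.

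**Figure D5:**
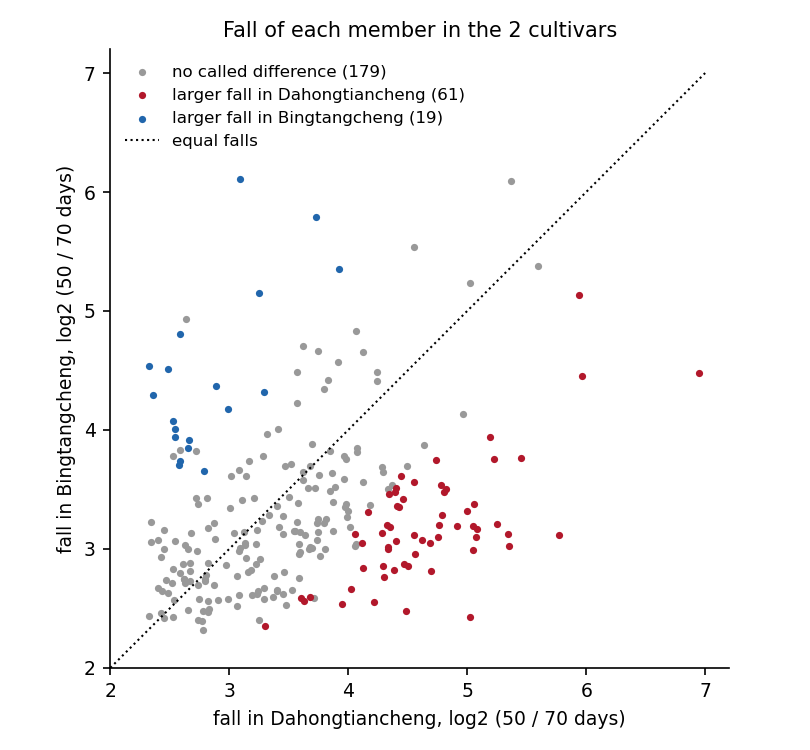
The fall of each member in Bingtangcheng is plotted against that in Dahongtiancheng, both as log2 of the 50-day over the 70-day level (CPM plus 0.5). Red points (61) had a larger fall in Dahongtiancheng and blue points (19) in Bingtangcheng. In these the folds from counts plus 0.5 differed at least 2-fold, with a 99% normal interval that excluded no difference. The dotted line marks equal falls.

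Position, length and strand were not used by the rule. Members were spread over the genome, from 1.60% of the genes past the 50-day minimum on chromosome 4 to 2.26% on chromosomes 2 and 8 and 2.28% on unplaced sequence. Of the members 222 had Cs and 37 orange1.1t identifiers, 1.999% and 2.28% of the genes of each form past the minimum. The plus strand held 129 members and the minus strand 130. Of the 600 Citrus_newGene models, which the rule left out, Citrus_newGene_2057 alone met its other conditions, among 167 with a lower 50-day level of at least 5.

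Members seldom lay side by side. Allowing at most 2 other gene models between neighbours, 20 members, or 7.72%, formed 10 pairs and no longer run. Among the other genes past the 50-day minimum, 6.75% had a member as near, so the share of members is close to this background. In 7 of the 10 pairs no gene model lay between, and in 8 the partners were on 1 strand. How often neighbouring gene models in general share a strand was not determined, so nothing is read from these 8. The gene models directly next to a member, 290 of them past the minimum and not members, had a median log2 ratio of 70 to 50 days of -0.23 in Dahongtiancheng and -0.29 in Bingtangcheng. Other such genes had -0.20 and -0.25. The medians of the neighbours thus lay close to those of other genes. Levels at least 2-fold lower at 70 days in both cultivars were found in 27 of the 290 neighbours, or 9.31%. Of the 12182 other genes 7.10% were this much lower, and the difference was not tested.

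The 5 pairs with the highest summed 50-day levels were Cs2g05930 with Cs2g05940, Cs1g19390 with Cs1g19393, Cs1g22300 with Cs1g22310, Cs6g05620 with Cs6g05630, and Cs3g16980 with Cs3g17000. In the pair on chromosome 2, Cs2g05930 (3266601 to 3267953, minus strand) had 356 and 443 CPM at 50 days, then 37.7 and 53.2 CPM at 70 days in Dahongtiancheng and Bingtangcheng. Its neighbour Cs2g05940 (3278158 to 3279201, minus strand) had 11.6 and 11.6 CPM at 50 days, then 1.67 and 1.46 CPM at 70 days. On chromosome 6, Cs6g05620 (7098463 to 7105229, plus strand) was 29.4-fold lower (21.7 to 40.8) at 70 days in Dahongtiancheng and 15.8-fold lower (12.8 to 19.7) in Bingtangcheng. For Cs6g05630 (7107249 to 7117321, plus strand) the folds were 6.63 (4.82 to 9.33) and 8.73 (5.98 to 13.1). In these 2 pairs the neighbours differed in level, and on chromosome 6 also in the fold in Dahongtiancheng.

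The gene models of members were somewhat shorter. Their median length in the files was 1575, against 1747 for the other genes past the 50-day minimum, and their median span on the chromosome was 2602 against 3864.5. The span equalled the length, as in a model without introns, for 41 members, or 15.8%, and for 9.61% of the other genes. These differences were not tested. The longest member was Cs5g34300 (chromosome 5, 35157932 to 35172464, plus strand), with a length of 9452 and 89.6 and 96.5 CPM at 50 days against 8.03 and 8.94 CPM at 70 days in Dahongtiancheng and Bingtangcheng. The shortest was Cs1g19393 (chromosome 1, 22698430 to 22698857, plus strand), with a length of 186 and 724 and 1360 fragments at 50 days against 40 and 31 at 70 days. The deposited FPKM of this short model was 203770 in the 50-day Bingtangcheng library, far above that of any other member, so that its FPKM cannot be set beside theirs.

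Of the 259 members, 26 overlapped another gene model, 18 on the opposite strand and 10 on the same. How often other gene models overlap was not determined, so nothing is read from these counts. Cs5g17950 and Cs5g18000 (chromosome 5, 18117387 to 18118703, plus strand) were the only members that overlapped each other. Cs5g18000 had 250 and 163 fragments at 50 days, then 11 and 8 at 70 days in Dahongtiancheng and Bingtangcheng. Its span lies within that of the far more abundant Cs5g17950, and whether they share counted sequence was not determined.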

How the data were processed

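The files of the 4 libraries hold 3 measures per gene model, per the file headers. Raw fragment counts, deposited by the authors, are whole numbers and were the values analysed. The deposited normalized count, a signal obtained by the authors in a way not given in the sources used here, was read only to compare its ratios with those of raw counts. The deposited FPKM values served as an alternative. Per the labels' protocols, RNA was extracted with Trizol and poly(A) mRNA was enriched. For aligner, counter, build and annotation, nothing is given in the sources used here. A header line repeated 1 time in each file was skipped.

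Counts were divided by the library total, scaled to 1000000 fragments and increased by 0.5. Dahongtiancheng or Bingtangcheng and 50 or 70 days, from the labels, define the groups. With 1 library a group no test was run. Folds of single genes carry exact conditional (Clopper-Pearson) intervals from raw counts without the offset. The members and lists were chosen with earlier results of these data known. Genes to name were the 10 with the largest ratio, the 10 with the highest lower 50-day level, those at the thresholds, the 3 with the largest cultivar differences in each direction, those at 0 in both 70-day libraries, the 5 pairs with the highest levels, and the longest and shortest model. The 9 genes lower in Dahongtiancheng at 50 days, the gene called in opposite directions, the overlapping Cs5g18000 and the 1 Citrus_newGene were named after their values were seen. TMM factors came from edgeR 4.0.16 and median-of-ratios factors from DESeq2 1.42.0, in R 4.3.3. The scripts (Python 3.11.15) were tested on simulated data.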

Additional observations from a re-analysis of the deposited data

Results flagged for a closer look

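Among the members, 1 was called in opposite directions between the cultivars at the 2 stages. Cs8g20420 (chromosome 8, 22223224 to 22225510, plus strand) had 299 fragments at 50 days in Dahongtiancheng and 691 in Bingtangcheng, then 43 and 21 at 70 days. Its level was 2.68-fold (95% counting interval 2.33 to 3.07) higher in Bingtangcheng at 50 days and 2.08-fold (1.21 to 3.69) higher in Dahongtiancheng at 70 days. The fall in Dahongtiancheng minus that in Bingtangcheng was -2.46 on the log2 scale. With 1 library a group this difference was not tested.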

How the results depend on the processing

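The set of 259 members held 202 genes with TMM library sizes and 198 with median-of-ratios factors, all among the 259, and 213 with the deposited FPKM values, of which 182 were among the 259. Offsets of 0.1 and 1 gave 295 and 215 members, ratios of at least 4 and 8 gave 356 and 117, and no minimum level and a minimum of 10 gave 274 and 220. The median log2 ratio of members in Dahongtiancheng was -3.39 with TMM, -3.38 with median-of-ratios factors, and -4.00 and -3.16 with offsets of 0.1 and 1. In Bingtangcheng these values were -2.91, -2.90, -3.42 and -2.94. Genes higher at 70 days by the mirrored rule numbered 63 with TMM, 63 with median-of-ratios factors and 77 with FPKM, alternatives chosen after seeing the data, against 41. The counts of members called between the cultivars stayed within 1.5 times under both scalings, with 65 to 67 lower in Dahongtiancheng at 70 days and 14 higher. Members in runs numbered 38 with up to 5 gene models between neighbours and 14 with none. The depth limits single folds through the few fragments at 70 days. No paired analysis was possible because the groups share 1 replicate number only and no result comes from a test. A fit of stage with cultivar as a second term was not run, since its values had chosen the members. No library was left out, since each is the only one of its group.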
